A study of Mus musculus with 14 samples.

Results

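The insulin-like growth factor (IGF) system was examined in GFP-positive cells sorted from embryonic mouse neocortex. The genes were 2 ligands (Igf1 and Igf2), 2 receptors (Igf1r and Igf2r), 4 binding proteins (Igfbp2, Igfbp3, Igfbp4 and Igfbp5) and 2 secreted proteases of binding proteins (Pappa and Pappa2). All 28 probe sets that the platform annotation pairs with exactly 1 of these 10 symbols were taken, out of 45037 probe sets on the array and 18193 genes with a probe set of their own. One further probe set, paired with both Airn and Igf2r, was left out. The series holds 14 Affymetrix arrays. CD1 mouse embryos were electroporated in utero at E14.5, which drives vector DNA from the brain ventricle into the progenitor cells lining it. The vector was CtrlGFP, which gives GFP, or Fezf2GFP, which by its name also carries Fezf2, the transcription factor that specifies corticospinal neurons. Cells with GFP were sorted 24 h later (3 arrays of each vector) or 48 h later (4 arrays of each vector), and all 4 groups share the strain, the surgery and GFP. The labels name neither the promoter of the vectors nor the litter behind each array, so the p-values speak to the spread among these arrays, part of which may be technical.

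IGF1 and IGF2 are secreted peptides that signal for growth and survival through the tyrosine kinase receptor encoded by Igf1r. The receptor encoded by Igf2r carries no kinase and takes IGF2 into the cell for degradation. Binding proteins hold the ligands in the extracellular space and can prolong or limit their action, and pappalysin proteases release the ligands by cutting the binding proteins: the product of Pappa cuts mainly IGFBP4 and IGFBP5, and the product of Pappa2 cuts IGFBP3 and IGFBP5. In the cortex IGF1 is known as a factor for axon outgrowth of corticospinal neurons, and Igfbp4 as a gene of those neurons.

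The deposited values were log2 intensities after GCRMA, with array medians from 3.26 to 3.50. Log2 levels of different probe sets are not compared here. A level of 4 was taken as dim, and a gene was tested only where its brightest probe set passed that level on at least 3 arrays, which left 10295 genes. Among the IGF genes 7 of 10 were tested, and Igf1, Igf2 and Pappa were not; among the probe sets 13 of 28 were tested. Beside these, the Fezf2 probe set was lower in the arrays labelled Fezf2GFP, at 9.44 ± 0.11 against 11.30 ± 0.42 log2 units at 24 h (SD, n = 3 each; log2 fold change -1.86, limma adjusted p = 0.0324) and at 9.33 ± 0.70 against 10.15 ± 0.48 at 48 h (SD, n = 4 each; -0.82, limma adjusted p = 0.239). The labels do not place this probe set relative to the vector's insert, and every direction below rests on the labels. In addition, 2 control arrays stood apart: CtrlGFP 24 h replicate 1 had a mean correlation of 0.955 with its group, against 0.971 and 0.977 for the other arrays of that group, and CtrlGFP 48 h replicate 2 had 0.949 against 0.970 to 0.974. The next lowest was Fezf2GFP 48 h replicate 1, at 0.959 against 0.966 to 0.975 for the rest of its group. It was left out only in the fits without 1 array. The values without both control arrays are given where they bear on a result. Markers of the tissue were present. All 9 cortical progenitor markers on the array and all 8 cortical neuron markers were tested, and their summed levels (log2 of the summed linear intensities) ran from 15.86 to 16.78 and from 15.79 to 16.95. At 48 h 2 of the 9 progenitor markers were higher in Fezf2GFP at a limma adjusted p under 0.05, and 0 of the 8 neuron markers. Over all genes tested 3.13% had such a p in either direction. At 24 h 0 markers of either list did, beside 1.06% of all genes. Of the markers of endothelial cells 8 of 10 lay below the dim level on every array, as did 9 of 10 meningeal and 9 of 10 microglial markers and 5 of 8 pericyte markers. Summed red blood cell markers were at 13.79 in CtrlGFP 24 h replicate 1, one of the arrays that stood apart, at 10.06 in Fezf2GFP 24 h replicate 3 and at 7.32 or less elsewhere. Summed choroid plexus markers were at 10.01, 9.46 and 8.50 in replicate 3 of Fezf2GFP at 24 h, CtrlGFP at 48 h and Fezf2GFP at 48 h, and at 6.02 or less elsewhere.

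RefSeq windows upstream of the annotated start were at hand for 9 of the 10 genes (13 windows, assembly GRCm38.p6). The 3 shown are those of Pappa2, the 1 gene of the 7 tested that passed in any comparison, and of Igfbp3 and Igfbp5, the binding proteins that its product cuts. Each is the 250 bases before the start, read 5′ to 3′ on the gene's strand, with every CpG in capitals. They lie at chr1:158958176-158958425 (minus strand) for Pappa2, chr11:7213924-7214173 (minus strand) for Igfbp3 and chr1:72874866-72875115 (minus strand) for Igfbp5.
Pappa2: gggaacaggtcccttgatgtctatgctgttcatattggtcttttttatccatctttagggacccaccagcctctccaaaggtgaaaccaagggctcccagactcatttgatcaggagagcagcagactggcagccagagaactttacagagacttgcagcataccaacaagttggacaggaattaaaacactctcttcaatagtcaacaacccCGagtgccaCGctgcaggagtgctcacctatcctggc
Igfbp3: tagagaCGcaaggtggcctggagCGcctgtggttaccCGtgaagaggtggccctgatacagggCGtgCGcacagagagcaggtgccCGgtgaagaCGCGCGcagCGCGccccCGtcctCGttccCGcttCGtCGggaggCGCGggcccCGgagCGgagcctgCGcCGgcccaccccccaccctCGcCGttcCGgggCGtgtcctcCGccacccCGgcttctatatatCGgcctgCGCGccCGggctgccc
Igfbp5: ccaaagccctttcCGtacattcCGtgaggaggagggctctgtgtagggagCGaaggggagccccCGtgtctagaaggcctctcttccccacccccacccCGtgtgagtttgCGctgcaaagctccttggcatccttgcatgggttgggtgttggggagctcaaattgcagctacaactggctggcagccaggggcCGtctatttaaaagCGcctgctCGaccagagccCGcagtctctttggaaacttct
The windows differ in composition. The Pappa2 window had 49.2% GC and 2 CpG, and 18.8% of the 32851 upstream windows in the RefSeq table had fewer CpG. The Igfbp3 window had 73.2% GC and 32 CpG, more than 95.4% of windows. The Igfbp5 window lay between them, with 58.8% GC and 10 CpG, against medians of 52.4% and 6 over all windows. The search covered 5 motifs on both strands of the 13 windows. TATAAA was found in the window of Igfbp4 and no other of the 13 (12.4% of all windows), TAATTA in none (4.84% of all windows), CAGCTG in that of Igf1 (13% of all windows), CACGTG in those of Igf2r and Igfbp2 (6.02% of all windows), and GGGCGG in those of Igf1r, Igf2r, Igfbp2 and Igf2 (32.7% of all windows). None of the 5 was in the 3 windows printed. These matches describe letters, not binding sites.

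The question of the design is which genes change when Fezf2 is delivered to progenitors, at 24 h and at 48 h. Among the IGF genes the protease gene Pappa2 rose at 48 h, by 3.84-fold, and no other tested member passed the test in any of the 5 comparisons. At 24 h 0 of 7 members passed, against 1.06% of all genes tested, and 0 of 7 had an unadjusted p under 0.05, against 8.85% of all genes. At 48 h 1 of 7 passed, against 3.13% of all genes tested (2.7% in the same direction), and 4 of 7 had an unadjusted p under 0.05, against 15.2% of all genes. The limma log2 fold change was above 0 for 7 of 7 members at both times, against 56.4% of all genes at 24 h and 57.3% at 48 h. Without both control arrays that stood apart it was above 0 for 4 of 7 members at 24 h and 6 of 7 at 48 h. With all arrays its median over the 7 was 0.25 at 24 h and 0.71 at 48 h, beside 0.056 and 0.063 over all genes. The IGF genes were chosen with earlier results of these data known. The counts and medians beside those of all genes are thus a description, not a test of the system.

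**Figure D1:**
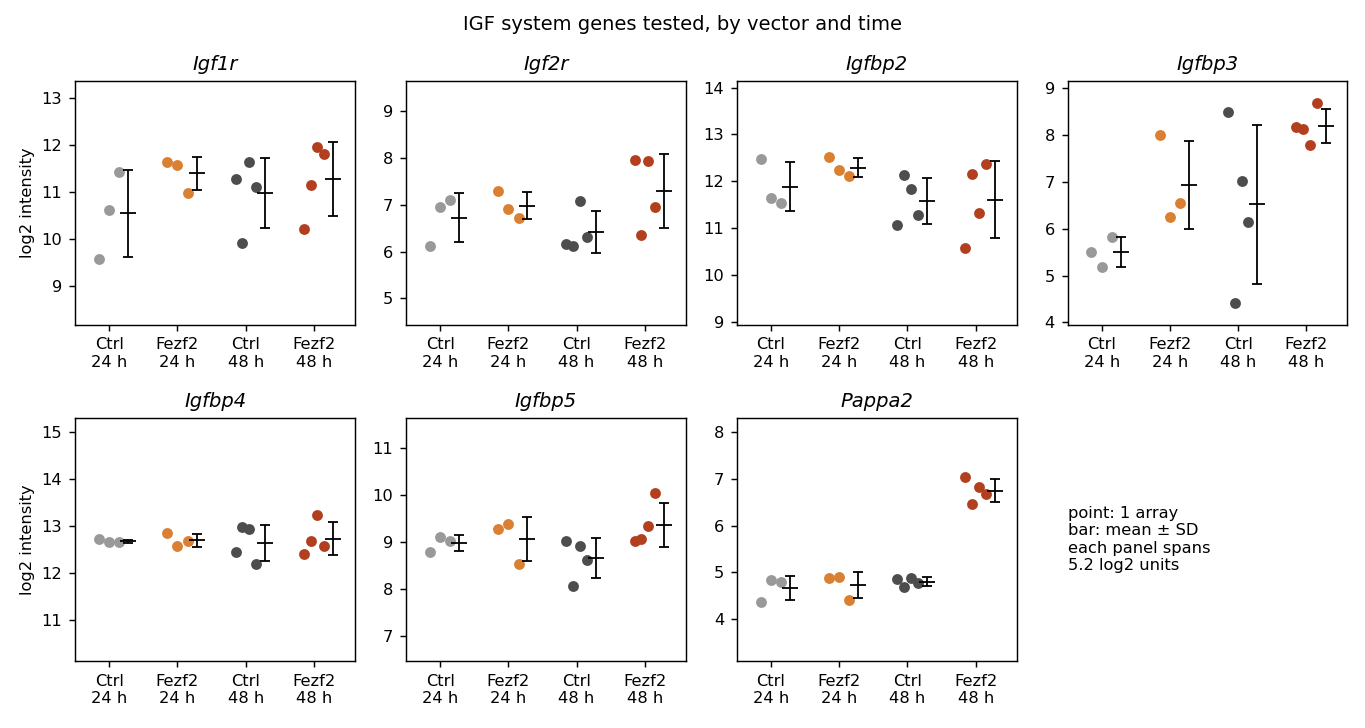
Log2 intensity (vertical axis) of the 7 tested IGF genes in each vector and time group (horizontal axis), 1 point per array, with the mean and SD as bars and the same span of log2 units in every panel. The 4 Fezf2GFP arrays at 48 h stand above all other arrays for Pappa2, between 6.46 and 7.03, while for the other genes the 2 vectors overlap at each time, apart from Igfbp3 at 24 h.

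Pappa2 was measured by 1 probe set, which lay above the dim level on all 14 arrays. In CtrlGFP at 24 h its log2 levels were 4.37, 4.83 and 4.79, and in Fezf2GFP at 24 h they were 4.89, 4.89 and 4.41. In CtrlGFP at 48 h they were 4.87, 4.68, 4.88 and 4.78, and in Fezf2GFP at 48 h they were 7.03, 6.46, 6.82 and 6.68. The first 3 groups lay within each other's range, close above the dim level, and the 4 arrays of Fezf2GFP at 48 h lay above all of the other 10 arrays. The group means in descending order were 6.75 ± 0.24 in Fezf2GFP at 48 h (SD, n = 4), 4.80 ± 0.09 in CtrlGFP at 48 h (SD, n = 4), 4.73 ± 0.27 in Fezf2GFP at 24 h (SD, n = 3) and 4.66 ± 0.25 in CtrlGFP at 24 h (SD, n = 3). The last 3 of these did not differ beyond their spread.

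At 48 h Pappa2 was higher in Fezf2GFP by 1.94 on the log2 scale (SE 0.17, 95% interval 1.58 to 2.31, limma adjusted p = 5.6e-05). The linear ratio was 3.84 (95% interval 2.98 to 4.96). It ranked 7 of 10295 genes by p and 75 by the size of the rise. Its arrays did not overlap between the groups, as held in the same direction for 7.35% of all genes. At 24 h the difference was 0.07 (SE 0.20, 95% interval -0.36 to 0.49, limma adjusted p = 0.923), so a rise at 24 h of the size seen at 48 h lay outside the interval. The difference between both effects was 1.88 (SE 0.26, 95% interval 1.32 to 2.44) and passed (limma adjusted p = 0.0159), as did 0.0971% of all genes. In bulk RNA a rise in each cell and a larger share of cells with the transcript cannot be told apart.

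Between 24 h and 48 h Pappa2 moved with the vector. In CtrlGFP it changed by 0.14 (SE 0.18, limma adjusted p = 0.737), and in Fezf2GFP it rose by 2.02 (SE 0.18, limma adjusted p = 5.76e-05), a ratio of 4.04. The 4 arrays at 48 h lay above the 3 at 24 h, as did 13.3% of all genes. Pappa2 was the 1 member of 7 that passed over time in Fezf2GFP, where 12.1% of all genes passed. In CtrlGFP 0 of 7 passed and 0 had an unadjusted p under 0.05, where 12.6% of all genes passed and 24.1% had such a p.

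The call for Pappa2 at 48 h held in 25 of 25 alternative settings, with log2 fold changes from 1.61 to 2.04 and adjusted p from 3.18e-05 to 0.00211. Not all of these settings could move the 48 h estimate. Pappa2 has 1 probe set, so the probe set rule could not, nor could the dim filter or leaving out a 24 h array. The rise of Pappa2 over time in Fezf2GFP also held in 25 of 25, from 1.78 to 2.11. Without both control arrays that stood apart the 48 h difference was 1.90 (limma adjusted p = 0.00022) and the 24 h difference -0.08. Pappa2 spans 248725 bases, longer than 95.6% of the genes tested, and with each array's trend with gene span removed the differences were 1.61 at 48 h (limma adjusted p = 0.000171) and -0.28 at 24 h. The difference between both effects was less stable. It passed in 19 of 24 settings and did not pass when 1 of 4 arrays was left out: replicate 2 (adjusted p = 0.0718) or 3 (0.0761) of CtrlGFP at 24 h, replicate 3 of CtrlGFP at 48 h (0.0547), or replicate 3 of Fezf2GFP at 24 h (0.0657). It also did not pass with a replicate block (0.12), with estimates that stayed between 1.72 and 2.02 over all settings.

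**Figure D2:**
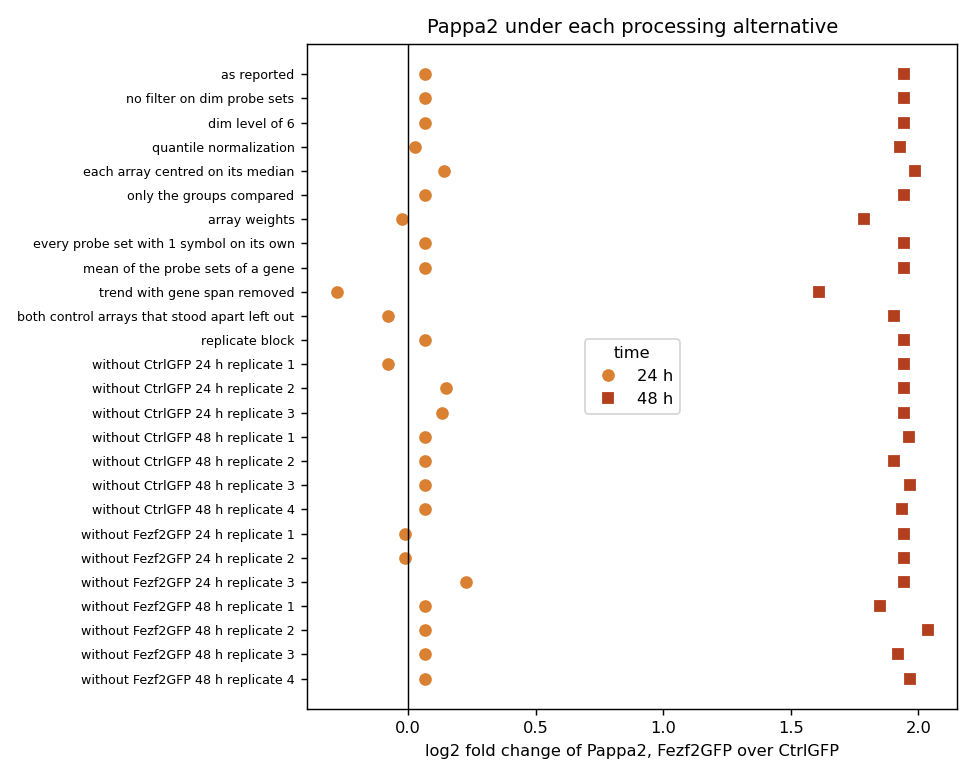
Log2 fold change of Pappa2, Fezf2GFP over CtrlGFP (horizontal axis), as reported and in each of the 25 alternative settings (rows), at 24 h (circles) and 48 h (squares). The 48 h values run from 1.61 to 2.04 and the 24 h values from -0.28 to 0.23, with no overlap.

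The other protease gene, Pappa, was dim. Its 3 probe sets ran from 2.98 to 3.74 over the 14 arrays, and no value passed the dim level. No fold change is given for it, since values below the dim level carry little signal.

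The 3 genes closest to Pappa2 were found by the mean absolute difference of centred log2 values over the 14 arrays. These were Dkk3, which encodes a secreted protein of the Dickkopf family, at 0.23 log2 units, Mmp24, a membrane-bound matrix metalloproteinase, at 0.24, and Cdhr1, a cadherin-related protein, at 0.26. Dkk3 was at 6.79 ± 0.08 in CtrlGFP and 8.50 ± 0.37 in Fezf2GFP at 48 h (SD, n = 4 each), and at 6.59 ± 0.57 and 6.90 ± 0.95 at 24 h (SD, n = 3 each). Mmp24 was at 8.50 ± 0.21 and 10.20 ± 0.22 at 48 h, and at 8.22 ± 0.39 and 8.29 ± 0.66 at 24 h; with its probe sets averaged the 48 h difference was 0.52. Cdhr1 had group means below the dim level in CtrlGFP at both times and in Fezf2GFP at 24 h, and was at 5.18 ± 0.44 in Fezf2GFP at 48 h, so the size of its difference was not measured. The 3 genes were chosen for this pattern, and their levels are a description with no test.

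The ligand genes lay near or below the dim level. The 4 probe sets of Igf1 ran from 2.14 to 2.76 over all arrays, and no value passed the dim level. One Igf2 probe set (1415931_at) ran from 2.91 to 3.35 and was also dim on every array. The other (1448152_at) reached 4.85 in Fezf2GFP 24 h replicate 1, 4.45 in Fezf2GFP 48 h replicate 4 and 3.39 in Fezf2GFP 48 h replicate 2, and lay between 2.03 and 2.48 on the other 11 arrays. The 3 highest values were thus all in arrays labelled Fezf2GFP, but the other 4 arrays with that vector were as low as the controls. In the order given, those 3 arrays had summed endothelial marker levels of 6.63, 7.08 and 7.33 and pericyte levels of 10.24, 9.28 and 9.80. On the other 11 arrays these sums ran from 6.19 to 6.70 and from 7.30 to 10.16. Both were highest there in Fezf2GFP 48 h replicate 3, where Igf2 was 2.48. The part of vessel cells in these Igf2 values was not tested.

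**Figure D3:**
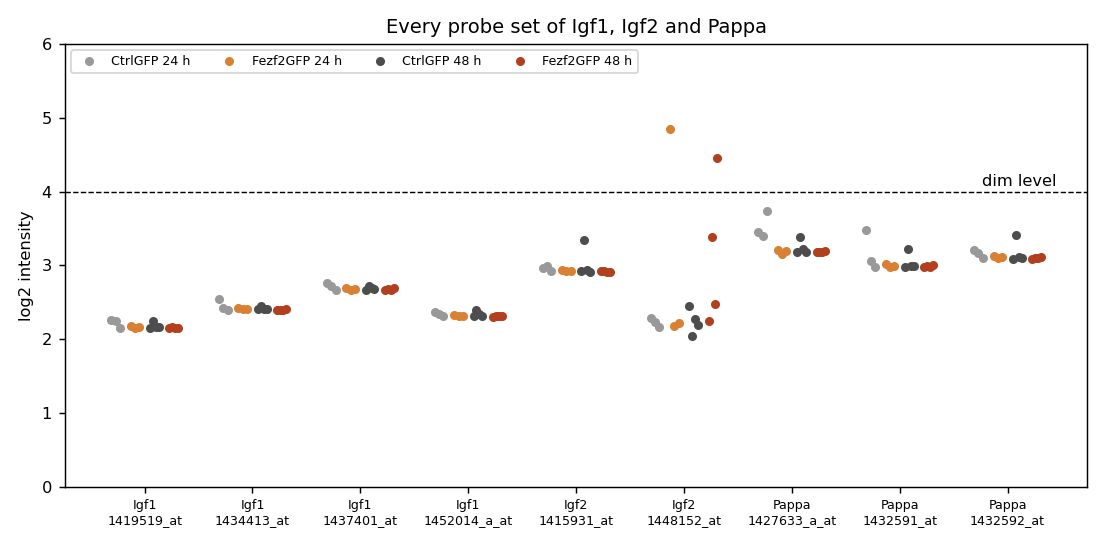
Log2 intensity (vertical axis) of every probe set of Igf1, Igf2 and Pappa (horizontal axis), 1 point per array coloured by group, with the dim level of 4 as a dashed line. Among these 9 probe sets only Igf2 probe set 1448152_at passes the line, on 2 arrays, at 4.85 and 4.45.

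Igf1r, the signalling receptor, was measured by 5 probe sets, all above the dim level on 14 of 14 arrays. The brightest (1428967_at) gave 9.58, 10.62 and 11.43 in CtrlGFP at 24 h, and 11.63, 11.58 and 10.99 in Fezf2GFP at 24 h. At 48 h it gave 11.27, 9.92, 11.65 and 11.11 in CtrlGFP, and 10.22, 11.15, 11.96 and 11.81 in Fezf2GFP. The groups overlapped at both times, and the lowest values of the controls were in the 2 control arrays that stood apart. The difference was 0.86 at 24 h (SE 0.55, limma adjusted p = 0.696) and 0.30 at 48 h (SE 0.47, limma adjusted p = 0.829). Without both of those arrays the differences were 0.37 and -0.06. The second bright probe set (1452982_at) varied less and differed by -0.18 at 24 h (95% interval -0.57 to 0.21) and 0.24 at 48 h (95% interval -0.10 to 0.58). The 5 probe sets did not share a sign: 3 were above 0 at 24 h, and 1452108_at was below 0 at both times, at -0.55 and -0.46. The groups of 1452108_at did not overlap at 24 h, as held in that direction for 7.45% of the 17407 probe sets. None passed among the 17407 probe sets fitted one by one, where 0.695% passed at 24 h and 2.06% at 48 h.

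Igf2r, the clearance receptor, gave 6.12, 6.96 and 7.09 in CtrlGFP at 24 h and 7.29, 6.91 and 6.72 in Fezf2GFP at 24 h (1424112_at). At 48 h it gave 6.16, 6.12, 7.08 and 6.31 in CtrlGFP, and 7.96, 6.35, 7.92 and 6.95 in Fezf2GFP. At 48 h the 4 Fezf2GFP arrays were above 3 of the 4 controls, and the groups overlapped through CtrlGFP replicate 3. The difference was 0.25 at 24 h (SE 0.42, limma adjusted p = 0.861) and 0.88 at 48 h (SE 0.37, 95% interval 0.09 to 1.67). The 48 h value had an unadjusted p of 0.0321 and did not pass over all genes (limma adjusted p = 0.262). The second probe set (1424111_at) ran from 6.09 to 6.57 in CtrlGFP at 48 h and from 6.58 to 6.96 in Fezf2GFP. Its groups did not overlap, as held in that direction for 5.93% of the 17407 probe sets, and the difference was 0.35 (SE 0.20, limma adjusted p = 0.514).

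**Figure D4:**
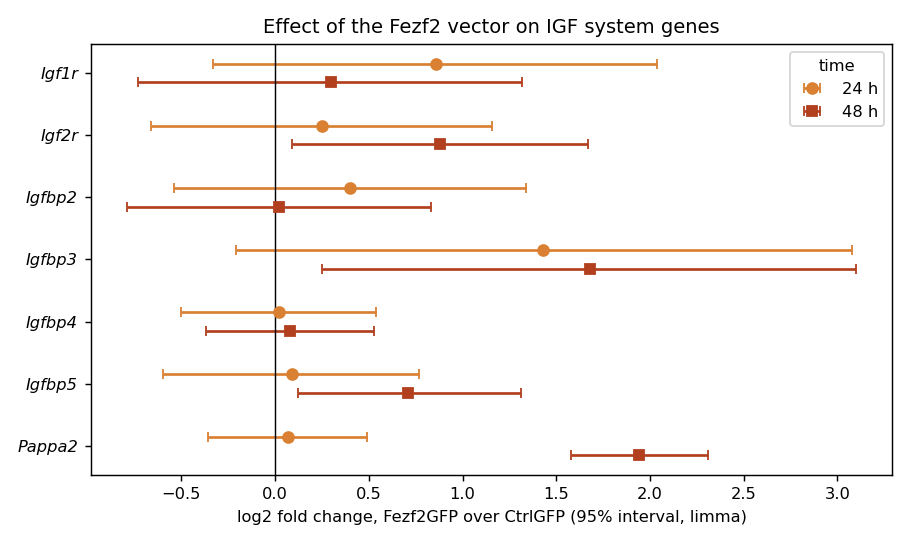
Log2 fold change, Fezf2GFP over CtrlGFP, of the 7 tested IGF genes with 95% intervals from limma, at 24 h (circles) and 48 h (squares). At 48 h the intervals of Pappa2, Igfbp3, Igfbp5 and Igf2r exclude 0 before adjustment, and Pappa2 alone passed after adjustment over all genes; at 24 h all 7 intervals include 0.

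Igfbp3, a binding protein that the Pappa2 product cuts, had the widest spread of the 7 genes. In CtrlGFP at 24 h its log2 levels were 5.49, 5.19 and 5.82, and in Fezf2GFP at 24 h they were 8.00, 6.26 and 6.54. In CtrlGFP at 48 h they were 8.48, 4.42, 7.03 and 6.15, and in Fezf2GFP at 48 h they were 8.18, 8.14, 7.79 and 8.68. At 24 h every Fezf2GFP array was above every control, as for 12.6% of all genes in that direction, while at 48 h the control arrays alone spanned 4.42 to 8.48 and reached into the Fezf2GFP range. The pooled within-group SD was 1.05, and 98.2% of genes had a smaller one. The difference was 1.43 at 24 h (SE 0.76, 95% interval -0.21 to 3.08, limma adjusted p = 0.66) and 1.68 at 48 h (SE 0.66, 95% interval 0.25 to 3.10, limma adjusted p = 0.228). The 48 h result turned on single controls: it was 2.33 and passed without CtrlGFP 48 h replicate 1 (adjusted p = 0.045), and 0.98 without both control arrays that stood apart (adjusted p = 0.383). A second probe set (1458268_s_at) passed the dim level on 1 array, Fezf2GFP 48 h replicate 4, at 5.18.

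The summed level of 8 markers of GABAergic neurons was set beside Igfbp3. In 2 of the 4 groups the array with the highest Igfbp3 level also had the highest sum: Fezf2GFP at 24 h (8.00 and 10.67) and CtrlGFP at 48 h (8.48 and 10.47). In the other 2 groups it did not. The highest sum of CtrlGFP at 24 h, 7.50, was in an array with Igfbp3 at 5.49, and that of Fezf2GFP at 48 h, 10.34, was in the array with the lowest Igfbp3 level of its group, 7.79. The sum ran from 7.15 to 7.50 in CtrlGFP at 24 h, from 7.06 to 10.67 in Fezf2GFP at 24 h, from 7.72 to 10.47 in CtrlGFP at 48 h and from 9.27 to 10.34 in Fezf2GFP at 48 h. The summed pericyte level ran from 7.49 to 9.03, 7.30 to 10.24, 7.95 to 9.43 and 8.88 to 10.16 in the same order. Of the 7 GABAergic genes tested 0 passed at either time, with 4 at an unadjusted limma p under 0.05 at 24 h and 1 at 48 h. Over all genes 1.06% passed at 24 h and 3.13% at 48 h, and 8.85% and 15.2% had such a p. Of the 2 pericyte genes tested, Pdgfrb and Rgs5, 0 passed and 0 had such a p. The part of these cells in the Igfbp3 levels was not tested.

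Igfbp5, the other substrate of the Pappa2 product, gave 8.80, 9.12 and 9.03 in CtrlGFP at 24 h, and 9.28, 9.38 and 8.54 in Fezf2GFP at 24 h (1452114_s_at). At 48 h it gave 9.03, 8.07, 8.92 and 8.63 in CtrlGFP, and 9.03, 9.07, 9.35 and 10.04 in Fezf2GFP. At 48 h the Fezf2GFP arrays began where the controls ended, at 9.03. The difference was 0.09 at 24 h (SE 0.32, limma adjusted p = 0.94) and 0.71 at 48 h (SE 0.28, 95% interval 0.12 to 1.31). The 48 h value had an unadjusted p of 0.0224 and did not pass over all genes (limma adjusted p = 0.218). The second probe set (1422313_a_at) was dim on every array, at 2.60 to 2.73.

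Igfbp4, the binding protein known from corticospinal neurons, differed little between the group means. Its brightest probe set (1437405_a_at) ran from 12.64 to 12.71 in CtrlGFP and from 12.57 to 12.84 in Fezf2GFP at 24 h. At 48 h it gave 12.44, 12.98, 12.94 and 12.19 in CtrlGFP, and 12.40, 12.68, 13.22 and 12.57 in Fezf2GFP. The groups overlapped at both times. The difference was 0.02 at 24 h (SE 0.24, 95% interval -0.50 to 0.54, limma adjusted p = 0.979) and 0.08 at 48 h (SE 0.21, 95% interval -0.37 to 0.53, limma adjusted p = 0.901). The second tested probe set (1423756_s_at) gave 8.75, 8.82, 9.42 and 8.46 in CtrlGFP at 48 h, and 8.73, 9.27, 10.09 and 9.97 in Fezf2GFP. It differed by 0.65 (SE 0.29, unadjusted p = 0.0422 from limma, adjusted p = 0.353), so the 2 tested probe sets of Igfbp4 gave the same sign and different sizes, and neither passed. The other 4 probe sets of Igfbp4 were dim on every array.

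Igfbp2, a binding protein of progenitor cells, gave 12.49, 11.64 and 11.54 in CtrlGFP at 24 h, and 12.51, 12.25 and 12.11 in Fezf2GFP at 24 h. At 48 h it gave 11.06, 12.13, 11.84 and 11.29 in CtrlGFP, and 10.57, 12.15, 11.33 and 12.37 in Fezf2GFP. At 48 h the Fezf2GFP arrays spanned a wider range than the controls, beyond them at both ends. The difference was 0.40 at 24 h (SE 0.43, 95% interval -0.54 to 1.34, limma adjusted p = 0.781) and 0.02 at 48 h (SE 0.38, 95% interval -0.79 to 0.83, limma adjusted p = 0.987). For the 6 members other than Pappa2 the difference between both effects ran from -0.56 for Igf1r to 0.63 for Igf2r and Igfbp5, and none passed.

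The remaining secreted and receptor genes of the system formed a list of 11, of which 5 were tested: Insr, Igfbp7, Stc1, Stc2 and Htra1. None passed in Fezf2GFP against CtrlGFP at 24 h, where 2 had an unadjusted p under 0.05, or at 48 h, where 1 did. Over all genes 1.06% passed at 24 h and 3.13% at 48 h, and 8.85% and 15.2% had such a p. The median log2 fold change of the 5 genes was -0.60 at 24 h and -0.13 at 48 h. Stc1 and Stc2 encode stanniocalcins, secreted inhibitors of the pappalysins. Stc1 gave 6.98, 7.62 and 6.57 in CtrlGFP at 24 h, and 5.76, 5.83 and 5.86 in Fezf2GFP at 24 h. These groups did not overlap, as held in that direction for 7% of all genes, and the difference was -1.24 (SE 0.29, limma adjusted p = 0.0669). Over 25 settings it ran from -1.64 to -0.66, with adjusted p from 0.00018 to 0.267. It passed in 3 of them, under quantile normalization (adjusted p = 0.0409), after correction for gene span (0.0395) and with array weights (0.00018). The fit with array weights stopped before convergence and called 2030 genes at 24 h. At 48 h Stc1 was at 5.81 ± 0.41 in CtrlGFP and 5.68 ± 0.31 in Fezf2GFP (SD, n = 4 each; limma adjusted p = 0.859). Over time in CtrlGFP it fell by 1.24 (SE 0.27, limma adjusted p = 0.00858), and this call was lost with only the groups compared in the fit (adjusted p = 0.0594) and was -0.63 with the probe sets averaged (0.0143). Stc2 differed by -0.70 at 48 h (SE 0.27, limma adjusted p = 0.222). Htra1, a secreted serine protease that can cut binding proteins, differed by -1.23 at 24 h (SE 0.56, limma adjusted p = 0.55). Insr, the insulin receptor, differed by 0.04 and 0.09. Igfbp1, Igfbp6, Igfals, Insrr and Ins2 were set aside as dim.

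Of 26 genes that carry the signal from these receptors 21 were tested. At 24 h 0 passed and 1 had an unadjusted p under 0.05, beside 1.06% and 8.85% of all genes. At 48 h 2 rose and 0 fell, and 9 had an unadjusted p under 0.05, beside 3.13% and 15.2% of all genes. The median was 0.08 at 24 h and 0.25 at 48 h. Both genes that rose encode regulatory subunits of phosphoinositide 3-kinase, the lipid kinase recruited by activated receptors. Pik3r1 gave 8.84, 8.49, 9.02 and 8.75 in CtrlGFP at 48 h, and 10.16, 10.32, 11.62 and 11.17 in Fezf2GFP at 48 h. The groups stood apart by over 1 log2 unit, and the difference was 2.04 (SE 0.39, limma adjusted p = 0.0128); with the probe sets of the gene averaged it was 1.25 (adjusted p = 0.0107). Pik3r2 gave 8.94, 9.19, 9.20 and 9.03 against 10.20, 10.01, 9.80 and 10.24, a difference of 0.97 (SE 0.15, limma adjusted p = 0.0034). For both genes the groups did not overlap at 48 h, as held in that direction for 7.35% of all genes. Both calls held in 25 of 25 settings. At 24 h Pik3r1 differed by 1.23 (SE 0.45, limma adjusted p = 0.36) and Pik3r2 by 0.29 (SE 0.17, limma adjusted p = 0.691), and the difference between both effects passed for neither. Irs1, an adaptor of the receptors, differed by 0.58 and 0.84 and passed at neither time.

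**Figure D5:**
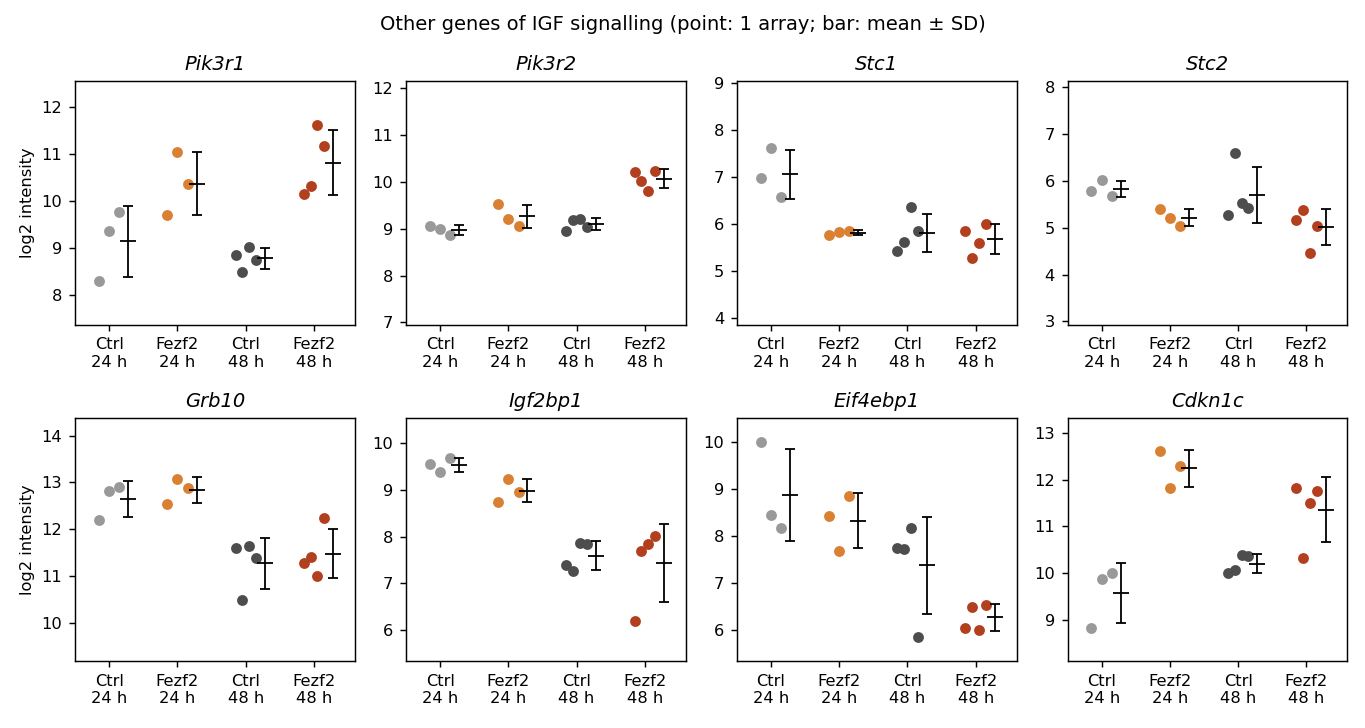
Log2 intensity (vertical axis) of 8 genes around the IGF receptors in each vector and time group (horizontal axis), 1 point per array, with the mean and SD as bars. Pik3r1 and Pik3r2 are higher in all 4 Fezf2GFP arrays than in all 4 controls at 48 h, and Grb10 and Igf2bp1 are lower at 48 h than at 24 h with both vectors.

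Over time, 1 of the 21 signal genes passed in CtrlGFP and 3 in Fezf2GFP, against 12.6% and 12.1% of all genes. Grb10, an imprinted adaptor that restrains these receptors, fell by 1.37 in CtrlGFP (SE 0.33, limma adjusted p = 0.0159) and by 1.35 in Fezf2GFP (SE 0.33, limma adjusted p = 0.0181). Each call was lost when either of 2 arrays of the 24 h group was left out, with adjusted p up to 0.0674 and 0.087, in CtrlGFP with only the groups compared (0.05) and in Fezf2GFP without Fezf2GFP 48 h replicate 3 (0.0545). Igf2bp1, an RNA-binding protein named for its binding to Igf2 mRNA, fell by 1.94 in CtrlGFP (SE 0.36, limma adjusted p = 0.00315) and by 1.54 in Fezf2GFP (SE 0.36, limma adjusted p = 0.0129); the second call was lost without Fezf2GFP 24 h replicate 2 (0.0668) or replicate 3 (0.05) and with only the groups compared (0.0608). With the probe sets of each gene averaged all 4 calls held, at -0.50 and -0.46 for Grb10 and at -1.01 for Igf2bp1 in Fezf2GFP. Of the 5 genes of its list 2 were tested, and Igf2bp3 passed in no comparison. Of the other signal genes Pik3r2 rose by 0.80 over time in Fezf2GFP (SE 0.16, limma adjusted p = 0.00622). There Eif4ebp1, a translation repressor acting below mTOR, fell by 2.06 (SE 0.53, limma adjusted p = 0.0235), a call lost in 7 of 25 settings, among them without Fezf2GFP 24 h replicate 1 or 3, without Fezf2GFP 48 h replicate 1 or 3, and with the probe sets averaged (-0.85, adjusted p = 0.0563).

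Igf2 and Igf2r are imprinted, so other imprinted genes were listed as well; 9 of 18 were tested. In Fezf2GFP against CtrlGFP 1 rose at 24 h and 0 passed at 48 h, where 2 had an unadjusted p under 0.05, with medians of 0.18 and 0.21. Of all genes 1.06% passed at 24 h and 3.13% at 48 h, where 15.2% had such a p. The gene that rose was Cdkn1c, an inhibitor of cyclin-dependent kinases. It was at 9.58 ± 0.64 in CtrlGFP at 24 h (SD, n = 3), and gave 12.60, 11.82 and 12.30 in Fezf2GFP at 24 h. The groups did not overlap, as held in that direction for 12.6% of all genes. The difference was 2.66 (SE 0.39, limma adjusted p = 0.00506), a call that held in 25 of 25 settings. At 48 h the difference was 1.14 (SE 0.34, limma adjusted p = 0.0957), which passed without Fezf2GFP 48 h replicate 2 (1.48, adjusted p = 0.0171). Peg3, a zinc finger protein, differed by 0.43 at 48 h (SE 0.15, limma adjusted p = 0.173). Over time 2 fell and 0 rose with each vector, Grb10 and Plagl1, the second a zinc finger transcription factor. Of all genes 12.6% passed over time in CtrlGFP and 12.1% in Fezf2GFP. Plagl1 fell by 0.82 in CtrlGFP (SE 0.16, limma adjusted p = 0.00423) and by 0.62 in Fezf2GFP (SE 0.16, limma adjusted p = 0.0211). The second call was lost in 7 of 25 settings, 5 of which left out 1 Fezf2GFP array (replicate 1, 2 or 3 at 24 h, or replicate 1 or 3 at 48 h). Both calls were lost with the probe sets of the gene averaged (adjusted p = 0.141 and 0.323).

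The summed level of 7 listed markers of Cajal-Retzius cells, an early-born neuron type of the cortical surface, was set beside Pappa2. It ran from 8.14 to 10.35 in CtrlGFP at 24 h and from 10.07 to 10.94 in Fezf2GFP at 24 h. At 48 h it ran from 7.34 to 9.94 in CtrlGFP and from 10.79 to 11.76 in Fezf2GFP. The ranges of Fezf2GFP at 24 h and 48 h overlapped. Calb2 and Reln are named below after their values were seen. Of the 7 markers 3 were tested, and 2 had an unadjusted limma p under 0.05 at 48 h, beside 15.2% of all genes. The 1 that passed, beside 3.13% of all genes, was Calb2, a calcium-binding protein. Its log2 level was 5.64 to 8.52 in the 4 Fezf2GFP arrays at 48 h and below the dim level on the other 10 arrays. Calb2 was thus tested only because of the arrays in which it was high. Its pass is no support for a change in these markers, and no size is given for its difference. Reln, a secreted protein listed as a marker of these cells, differed by 2.48 at 48 h (SE 0.62, limma adjusted p = 0.0508). Their transcription factors Trp73, Lhx1 and Lhx5 lay below the dim level on every array. The part of these cells in the Pappa2 level was not tested.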

How the data were processed

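Expression was measured on 14 Affymetrix mouse arrays. The RNA went through 2 rounds of linear amplification, per the labels' protocols, which can compress or skew levels. The deposited values are log2 intensities. The submitters' processing notes name GCRMA without a version or settings, so background correction and normalization are those of the authors. Probe sets were named through the platform annotation: 34945 with 1 symbol, 932 with several and 9160 with none. The symbols of all 10 IGF genes matched the RefSeq table of assembly GRCm38.p6 by Entrez gene ID, and promoter windows are from RefSeq.

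The probe set of highest mean log2 value stood for each gene. Genes above a log2 level of 4 on at least 3 arrays were tested (10295 genes, 7898 set aside). A mean per group was fitted with limma 3.58.1 (lmFit, eBayes) in R 4.3.3, with 10 residual degrees of freedom, for 5 comparisons, and p-values were adjusted by Benjamini-Hochberg over all genes tested, with a threshold of 0.05. All 17407 tested probe sets with 1 symbol were also fitted one by one. The fit was tested on simulated data with 200 changed genes in each comparison. A log2 change of 2 was recovered for 82% of genes at 24 h, 92% at 48 h and 61% for the difference between both effects. For a log2 change of 1 these shares were 45%, 48% and 18%, so a gene that did not pass may still have changed. Of the simulated calls 13 of 140 were false at 24 h, 6 of 146 at 48 h and 3 of 82 for the difference. The number of arrays limits the precision. Alternatives were the dim filter, normalization, array weights, the probe set rule, the fitted groups, gene span (found for 99.7% of genes), a replicate block and leaving out arrays.

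The IGF genes and the gene lists were chosen with earlier results of these data known. Named besides the IGF genes were, for each list, up to 3 passing genes in each direction by p, or up to 2 of the smallest p where none passed, and the 3 genes most like each member that passed; Insr, Calb2 and Reln were named after their values were seen.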

Additional observations from a re-analysis of the deposited data

Results flagged for a closer look

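The effect of Fezf2GFP on Pappa2 differed between 24 h and 48 h by a test of that difference, the limma interaction of vector and time, at 1.88 on the log2 scale (SE 0.26, adjusted p = 0.0159). The 48 h effect was 1.94 and the 24 h effect 0.07.

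Cdhr1, which was chosen for its likeness to Pappa2, had a fitted difference between both effects of 2.12 on the log2 scale. It lay below the dim level in the 3 other groups, so this value measures no size, and the choice of the gene fixed its pattern. Its level in Fezf2GFP 48 h replicate 2, 5.84, lay far from the other arrays of that group, at 4.91, 4.93 and 5.04. It was the 1 such sample in 56 groups of 4 arrays examined. Chance gives about 1 in 20 groups, so 1 in 56 is no more than chance gives.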

How the results depend on the processing

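With array weights, whose fit stopped before convergence, the genes called were 2030 at 24 h, 550 at 48 h, 240 for the difference between both effects, 3077 over time in CtrlGFP and 3133 over time in Fezf2GFP; among the IGF genes 3 passed at 24 h (Igf1r, Igfbp2 and Igfbp3), 1 over time in CtrlGFP (Igfbp3) and 2 over time in Fezf2GFP (Igfbp3 and Pappa2). With only the groups compared in the fit, 63 genes passed at 24 h, 168 at 48 h and 797 over time in CtrlGFP. For the difference between both effects, of 10 genes as reported, 4 passed at a dim level of 6, 16 of all probe sets fitted one by one, 5 with the span trend removed and 0 with a replicate block. With no dim filter 1 member, Pappa, passed over time in CtrlGFP at levels below the dim level. Leaving out 1 array gave 50 to 165 genes at 24 h (lowest without CtrlGFP 24 h replicate 2), 188 to 373 at 48 h, 0 to 12 for the difference, 911 to 1446 over time in CtrlGFP and 643 to 1433 over time in Fezf2GFP; the IGF genes called ranged from 1 to 2 at 48 h and from 0 to 1 for the difference, with 0 over time in CtrlGFP. The causes of these shifts were not tested.

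Deviations of same-numbered arrays of Fezf2GFP and CtrlGFP correlated from -0.056 to 0.318 at the same time. Those of the same vector at different times correlated from -0.399 to 0.193. Whether the replicate numbers mark a shared batch was not tested. With the replicate block the difference between both effects lost its IGF gene (0 called; Pappa2 adjusted p = 0.12). The block left Pappa2 called at 48 h and over time in Fezf2GFP. Removing the span trend moved the median of all genes by -0.109 at 24 h and -0.104 at 48 h. Signal over background limits Igf1, Igf2 and Pappa, for which no change could be measured, and Pappa2 in the 3 groups where it lay close to the dim level.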
